A study of Mus musculus with 4 samples.

Results

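The genes of the potassium, calcium, sodium and transient receptor potential (TRP) ion channels were examined in the outer tissues of the mouse femoral artery, which consist mainly of perivascular adipose tissue (PVAT). Members were the rows of the deposited table whose symbol begins with Kcn, Cacn, Scn and a digit, or Trpa, Trpc, Trpm or Trpv and a digit. The pattern matched 51 symbols. The rule leaves out 8 genes (*Kcnk3*, *Kcnmb1*, *Kcnma1*, *Kcna1*, *Scn7a*, *Cacna1c*, *Cacna1s* and *Cacng1*), of which 5 were among the matches, so that 46 of the 12661 genes in the table were described. Of these, 44 encode pore-forming or auxiliary subunits. *Trpc4ap* encodes a protein named for its association with a TRPC channel, and *Kcnq1ot1* is a long non-coding RNA of the *Kcnq1* locus. The GENCODE annotation of mm9 holds 149 symbols that fit the rule, and the members of the pattern without a row here, among them *Trpc6*, *Trpa1* and *Scn4a*, were not analysed here. All mice were wild type C57BL/6 females, ovariectomized and 11 weeks old by the labels, and 2 libraries were made 48 h after wire injury of the femoral artery (0.38 mm wire) and 2 libraries 48 h after sham operation. All groups shared the ovariectomy, which by the study's methods came before the operation on the artery.

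Ion channels are membrane proteins that let selected ions pass when voltage, a ligand, heat, stretch or an intracellular signal opens them. Potassium channels set the resting potential of a cell, voltage-gated calcium and sodium channels carry the inward currents of muscle and nerve, and TRP channels are cation channels that respond to chemical and physical stimuli. In and around an artery they are used by smooth muscle to set tone, by endothelium to sense flow, by nerve fibres to conduct and to sense pain, and by leukocytes to control membrane potential and calcium entry.

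The values are signed and log-like, one per gene and library, and lie around 0 for most genes. The median size of a gene's mean over the 4 libraries was 0.12, so genes are not all centred on these libraries. Neither the base of the scale nor what 0 stands for is given in the sources used here, so values are in deposited units, differences are injury minus sham in the same units, and no fold change or comparison of level between genes is made. Read depth and abundance are unknown. Over all genes the values ran from -2.27 to 6.45 and 50.5% lay below 0. For the channel genes they ran from -1.50 (*Kcnab1*, injury replicate 1) to 1.31 (*Kcnh2*, sham replicate 1). Nothing in the labels says whether each library is 1 mouse, so the p-values measure the spread between these libraries only. An exact permutation test of 1 gene cannot go below p = 0.333 with groups of 2, and the adjusted p-values given for single genes come from limma, adjusted by Benjamini-Hochberg over all 12661 genes.

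More channel genes were lower than higher after injury. The mean was lower in 31 of the 46 and higher in 15, and the median difference was -0.24 deposited units (0.01 over all genes). The median size of a difference, regardless of sign, was 0.53 for the channel genes and 0.25 over all genes. The gap between the 2 libraries of a group was also wider for the channel genes, with a median of 0.31 between the sham libraries and 0.35 between the injury libraries, against 0.15 and 0.19 over all genes. By limma, 6 channel genes (13.0%) had an adjusted p-value under 0.05, where 7.43% of all genes did. *Kcnab2* and *Kcnk13* rose, 2 of 46 against 3.76% of all genes in this direction. *Kcnh2*, *Kcnk5*, *Trpv1* and *Trpv4* fell, 4 of 46 against 3.67% of all genes. Below 0.1 the adjusted p-value counted 13 channel genes (18.3% of all genes), 5 higher (9.21%) and 8 lower (9.09%). Without adjustment, 23 channel genes (29.5% of all genes) were under 0.05. Groups did not overlap in 33 channel genes (61.9% of all genes). In 22 of these both injury libraries lay below both sham libraries (30.3% of all genes did so) and in 11 both lay above them (31.6% of all genes). The other 13 had groups that overlapped.

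**Figure D1:**
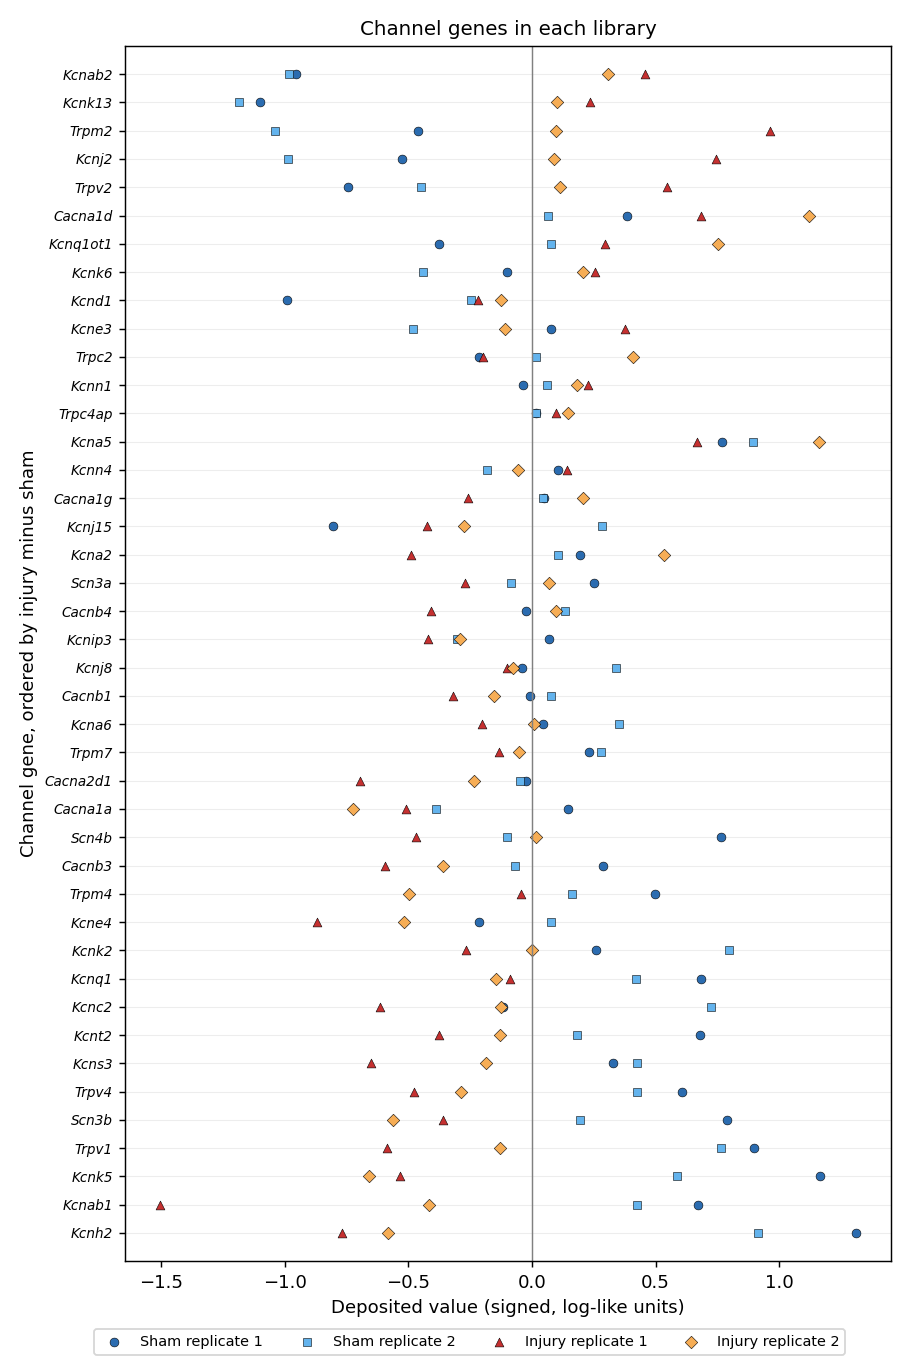
Deposited value (x axis, signed log-like units) of 42 of the 46 channel genes (y axis, ordered by injury minus sham) in the 4 libraries, 1 point per library. At the top *Kcnab2* and *Kcnk13* have both injury libraries above 0 and both sham libraries near -1, and at the bottom *Kcnh2* lies at 1.31 and 0.91 (sham) and at -0.77 and -0.58 (injury).

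These calls rest on few libraries. With sham replicate 1 or sham replicate 2 left out no channel gene was called by limma (19 had an unadjusted p-value under 0.05 in each case), and over all genes 0 and 1 were called. Those are 0% and 0.0079% of all genes. Without injury replicate 1 the called channel genes were *Kcnk13*, *Kcnab2* and *Kcnh2* (2.24% of all genes were called), and without injury replicate 2 the number was 12, all 6 included (14.1% of all genes). The direction of each of the 6 held with any library left out, as it must where groups do not overlap. None of their differences moved by over 1.5 times, though a call itself favours genes with small gaps within groups. In 28 of the 40 channel genes that were not called, leaving out 1 library moved the difference by over 1.5 times. Of other settings, quantile normalization gave 8 called channel genes (8.38% of all genes), columns scaled to one SD 8 (8.91%), a robust variance prior 6 (6.80%) and a replicate block 7 (5.40%).

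The stretch just upstream of the transcription start is shown for the 6 called genes, since these carry the comparison. Each run is 250 bases in the 5′ to 3′ direction of the gene, from RefSeq on GRCm38.p6, a later build than the mm9 used for the reads. It ends at the base before the annotated start, and *Kcnab2* has 3 listed starts, of which the most upstream is shown. Capitals mark matches on either strand to any of 5 motifs. These were GGGCGG (the GC box bound by Sp factors, in 32.7% of 32851 windows of this length), GAGGAA (core of the myeloid factor PU.1, 23.3%), TATAAA (12.4%), TGANTCA (AP-1, 6.75%) and the CArG box of serum response factor (1.47%). No match overlapped another.

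The genes that rose are on chr4:152477550-152477799 (minus strand, *Kcnab2*) and chr12:99964249-99964498 (plus strand, *Kcnk13*).
Kcnab2: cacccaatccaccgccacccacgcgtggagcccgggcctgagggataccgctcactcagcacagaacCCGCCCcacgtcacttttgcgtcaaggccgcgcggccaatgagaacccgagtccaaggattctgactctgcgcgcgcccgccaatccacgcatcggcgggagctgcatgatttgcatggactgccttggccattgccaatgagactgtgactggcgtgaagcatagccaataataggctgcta
Kcnk13: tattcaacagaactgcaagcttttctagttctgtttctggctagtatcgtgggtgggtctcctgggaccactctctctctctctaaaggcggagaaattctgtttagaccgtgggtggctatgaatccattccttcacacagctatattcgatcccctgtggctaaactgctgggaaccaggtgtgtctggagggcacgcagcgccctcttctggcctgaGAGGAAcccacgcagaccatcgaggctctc

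The genes that fell are on chr5:24329592-24329841 (minus strand, *Kcnh2*), chr14:20181783-20182032 (minus strand, *Kcnk5*), chr11:73233899-73234148 (plus strand, *Trpv1*) and chr5:114658422-114658671 (minus strand, *Trpv4*).
Kcnh2: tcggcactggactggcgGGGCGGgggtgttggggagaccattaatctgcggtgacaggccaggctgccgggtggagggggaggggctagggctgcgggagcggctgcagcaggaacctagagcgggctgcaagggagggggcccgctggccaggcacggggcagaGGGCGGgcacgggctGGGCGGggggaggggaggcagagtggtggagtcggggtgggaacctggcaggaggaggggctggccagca
Kcnk5: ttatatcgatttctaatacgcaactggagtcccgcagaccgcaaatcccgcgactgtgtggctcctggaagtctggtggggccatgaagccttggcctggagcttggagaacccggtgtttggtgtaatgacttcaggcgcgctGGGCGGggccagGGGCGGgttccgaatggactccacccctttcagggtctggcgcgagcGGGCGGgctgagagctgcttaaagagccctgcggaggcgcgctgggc
Trpv1: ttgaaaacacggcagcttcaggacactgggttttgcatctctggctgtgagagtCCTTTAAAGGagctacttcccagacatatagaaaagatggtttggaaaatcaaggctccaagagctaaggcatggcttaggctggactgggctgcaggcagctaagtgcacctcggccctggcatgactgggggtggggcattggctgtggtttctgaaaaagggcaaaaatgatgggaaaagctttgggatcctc
Trpv4: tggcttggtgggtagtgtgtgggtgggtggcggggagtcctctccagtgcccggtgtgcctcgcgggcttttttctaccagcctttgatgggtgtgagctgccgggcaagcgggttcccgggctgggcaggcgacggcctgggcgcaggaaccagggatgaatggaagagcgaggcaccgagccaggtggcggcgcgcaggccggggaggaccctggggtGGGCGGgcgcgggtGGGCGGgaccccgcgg

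GC boxes numbered 3 in *Kcnh2*, 3 in *Kcnk5*, 2 in *Trpv4* and 1 in *Kcnab2*, and *Kcnk13* and *Trpv1* had none. The windows of *Kcnh2* and *Trpv4* were 73.6% and 72.0% G or C, where the median window had 52.4%. The window of *Kcnk13* held the single PU.1 core, and that of *Trpv1* the single CArG box and only 2 CpG dinucleotides against 22 in *Trpv4*. These matches describe the sequence and are not measured binding sites.

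Among the pore-forming and silent subunits of voltage-gated potassium channels, 9 were measured, 1 fell, and none rose. *Kcnh2* encodes the hERG channel, which repolarizes heart muscle and is also found in smooth muscle. It was at 1.31 and 0.91 in the sham libraries and at -0.77 and -0.58 in the injury libraries, so that the groups were far apart. The difference was -1.79 (standard error 0.19, 95% interval -2.25 to -1.32, adjusted p = 0.0285 from limma), the lowest of all 46. *Kcnh2* lies on chromosome 5 of mm9 from 23825407 to 23857422 and overlaps the gene model *Gm15589* on the other strand. The library kit keeps strand, but the strand setting of the counting is not given in the sources used here, so reads of overlapping genes may not be told apart.

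Another 5 subunits of this class had both injury libraries below both sham libraries without passing the threshold. *Kcns3*, a silent subunit that modifies other channels, was at 0.33 and 0.42 after sham operation and at -0.65 and -0.19 after injury, a difference of -0.79 (adjusted p = 0.0665 from limma). *Kcnq1*, a delayed rectifier known from heart and epithelia, was at 0.68 and 0.42 after sham operation and at -0.09 and -0.15 after injury, a difference of -0.67 (adjusted p = 0.0596 from limma). In both genes the distance between the groups was wider than the gap within either group, although the injury libraries of *Kcns3* were 0.46 apart. For *Kcnc2* the separation was thin, with 1 sham library at -0.117 and 1 injury library at -0.124. *Kcna6* had the smallest difference of the 5, -0.30 (adjusted p = 0.315 from limma, and -0.45 to -0.14 with any 1 library left out).

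*Kcna5* and *Kcna2*, channels of arterial smooth muscle and of nerve, had injury libraries that lay on either side of the sham libraries. *Kcna5* was at 0.77 and 0.89 after sham operation and at 0.67 and 1.16 after injury, and the 95% interval of its difference ran from -0.42 to 0.59. *Kcna2* was at 0.19 and 0.10 after sham operation and at -0.49 and 0.53 after injury (95% interval -0.97 to 0.72). *Kcnd1*, an A-type channel, was the only member of the class with both injury libraries above both sham libraries, with a difference of 0.45 (adjusted p = 0.319 from limma), and its sham libraries were 0.75 apart. Leaving out sham replicate 1 brought the *Kcnd1* difference to 0.07, and leaving out sham replicate 2 to 0.82.

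The auxiliary subunits of voltage-gated potassium channels included a pair of paralogues with opposite differences. *Kcnab1* and *Kcnab2* encode beta subunits, cytoplasmic proteins related to aldo-keto reductases that bind channels of the Kcna family. *Kcnab2* was at -0.96 and -0.98 in the sham libraries and at 0.46 and 0.31 in the injury libraries. It rose by 1.35 (standard error 0.14, 95% interval 1.01 to 1.70, adjusted p = 0.0285 from limma), and the gaps within its groups, 0.03 and 0.15, were small beside this. *Kcnab2* is on chromosome 4 of mm9 from 151764851 to 151851980 and overlaps *Nphp4* and *Gm16333* on the other strand and *Gm16334* on its own strand. *Kcnab1* was at 0.67 and 0.43 after sham operation and at -1.50 and -0.42 after injury. Its groups did not overlap either, but its injury libraries were 1.09 apart, and the difference of -1.51 (standard error 0.36) missed the threshold (adjusted p = 0.0641 from limma). Leaving out injury replicate 1 brought the *Kcnab1* difference to -0.97, and leaving out injury replicate 2 to -2.05.

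Of the other auxiliary subunits, *Kcne4* had a difference of -0.63 (adjusted p = 0.101 from limma) with no overlap, at -0.21 and 0.08 after sham operation and at -0.87 and -0.52 after injury. *Kcne3*, a single-span subunit like *Kcne4*, had groups that overlapped and a difference of 0.33 (95% interval -0.31 to 0.98, and 0.055 to 0.61 with any 1 library left out). *Kcnip3*, which encodes a calcium-binding protein that partners Kcnd channels and also acts as a repressor of transcription, overlapped too. Its difference was -0.24 (-0.42 to -0.05 with any 1 library left out). The 5 genes of this class therefore did not move in 1 direction, and 1 of them was called.

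**Figure D2:**
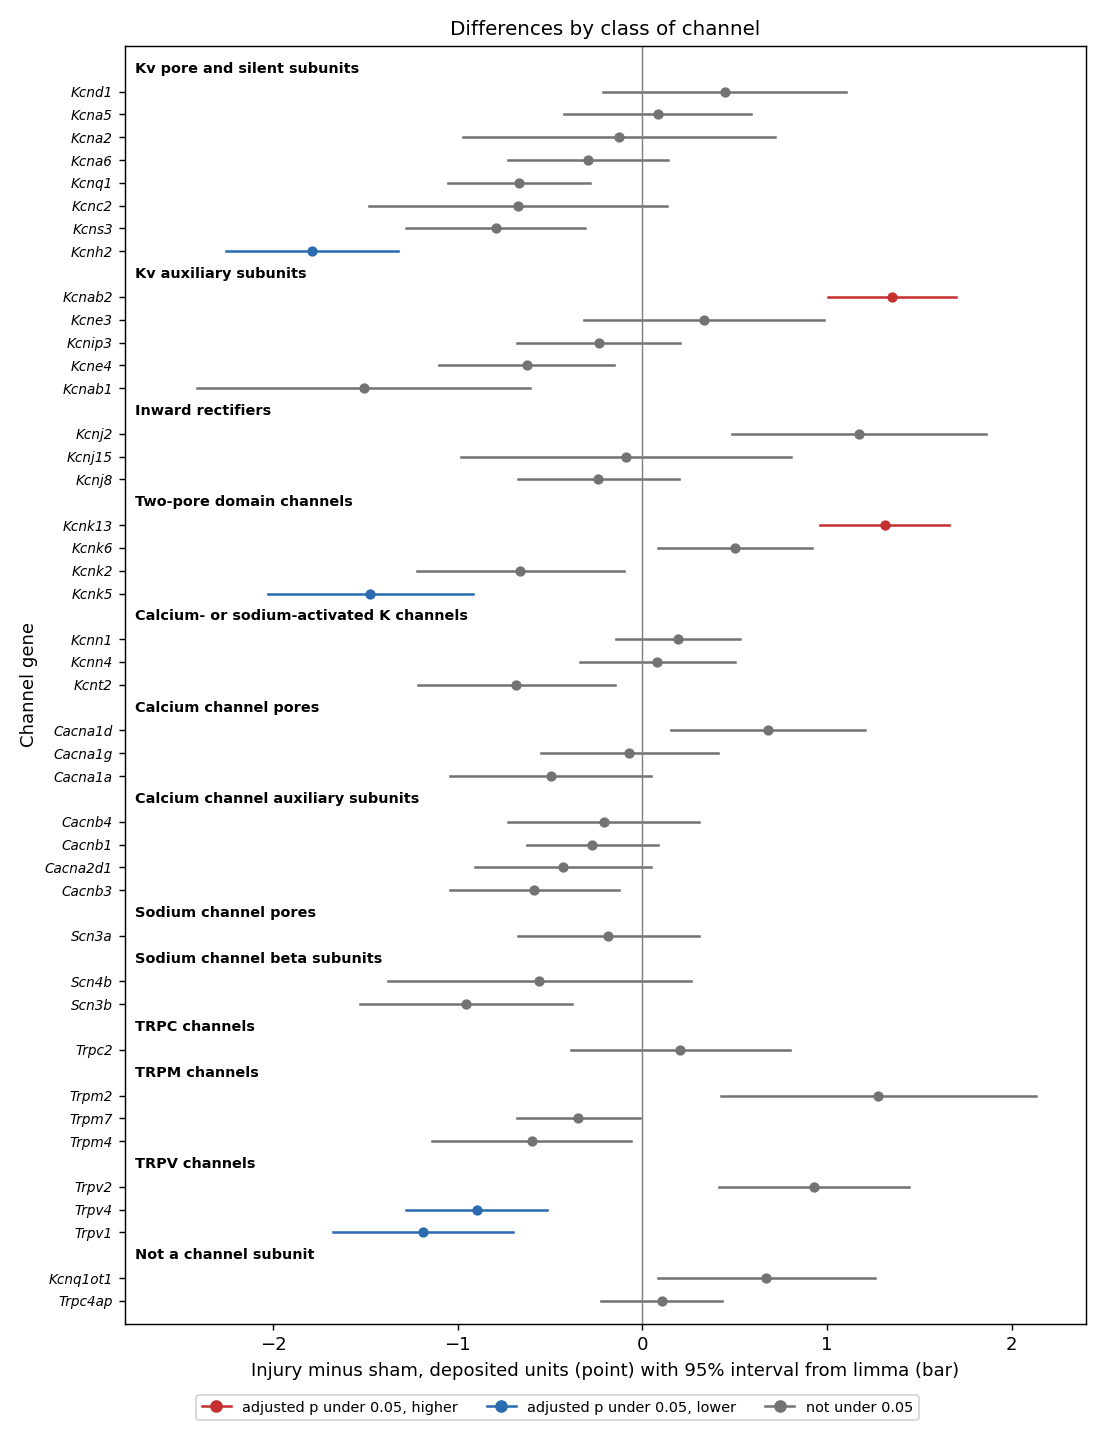
Injury minus sham in deposited units (x axis) for 42 of the 46 genes (y axis), grouped by class, with points for the difference and bars for the 95% interval from limma. The 2 genes that rose (red) have intervals from 1.01 to 1.70 and from 0.96 to 1.66, the 4 that fell (blue) lie between -1.79 and -0.90, and the others (grey) did not pass the threshold.

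The two-pore domain potassium channels, which carry background currents, also split. All 4 measured genes had groups that did not overlap (61.9% of all genes), with *Kcnk13* and *Kcnk6* higher and *Kcnk5* and *Kcnk2* lower in both injury libraries. *Kcnk13*, a channel found in microglia and macrophages, was at -1.10 and -1.18 after sham operation and at 0.24 and 0.10 after injury. It rose by 1.31 (standard error 0.14, adjusted p = 0.0285 from limma), and each pair of libraries lay within 0.14 of each other. It is on chromosome 12 of mm9 from 101202709 to 101300892, with a gene model on the opposite strand. *Kcnk6*, reported in macrophages as a path of potassium efflux, was at -0.10 and -0.44 after sham operation and at 0.25 and 0.21 after injury, a difference of 0.50 that did not pass (adjusted p = 0.122 from limma).

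*Kcnk5*, an alkali-activated channel of epithelia, was at 1.17 and 0.59 after sham operation and at -0.53 and -0.66 after injury. It fell by 1.47 (standard error 0.22, 95% interval of the difference -2.03 to -0.92, adjusted p = 0.0306 from limma). Its sham libraries were 0.58 apart, yet the lower of them was above both injury libraries by more than 1 unit. *Kcnk5* is on chromosome 14 of mm9 from 20959280 to 21001004. *Kcnk2*, a channel opened by stretch and lipids, was at 0.26 and 0.80 after sham operation and at -0.27 and 0.00 after injury. The difference of -0.66 did not pass (adjusted p = 0.125 from limma) and ran from -0.93 to -0.39 with any 1 library left out.

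**Figure D3:**
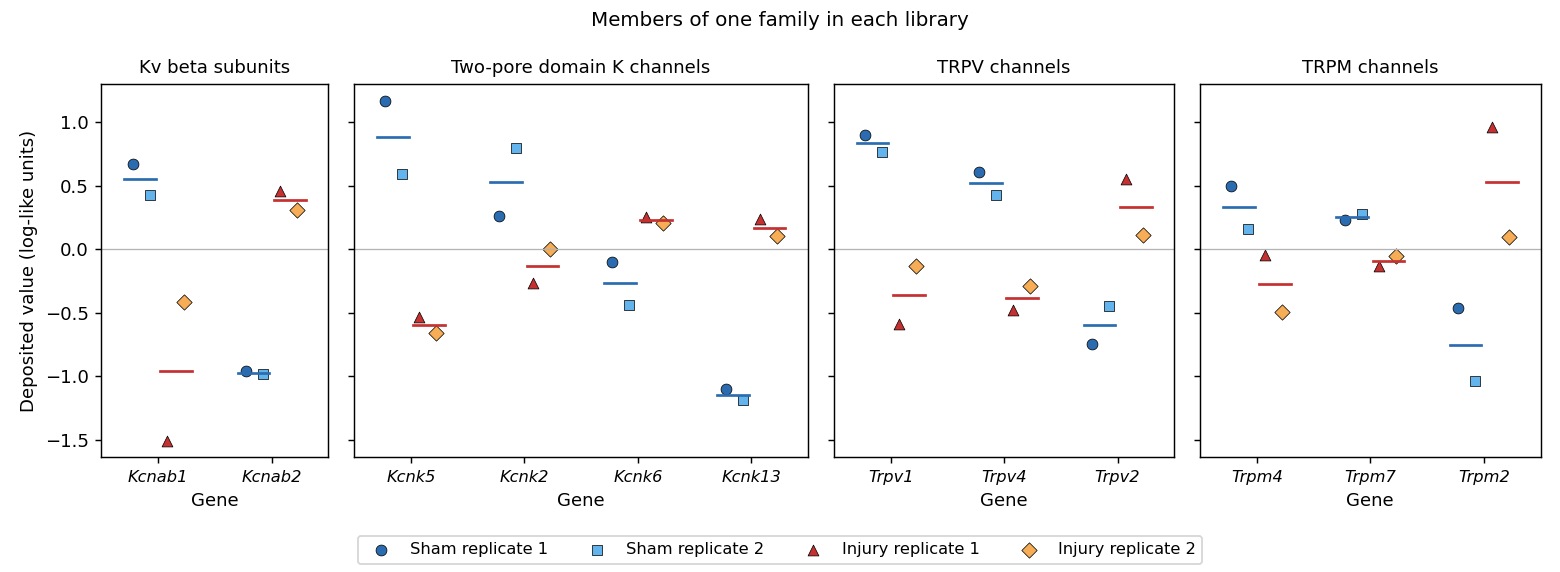
Deposited value (y axis, log-like units) of the Kv beta subunits, two-pore domain channels, TRPV channels and TRPM channels (x axis) in the 4 libraries, with horizontal lines for the mean of the 2 sham libraries (blue) and of the 2 injury libraries (red). Each family has a member with both injury libraries above 0 and both sham libraries below it (*Kcnab2*, *Kcnk13*, *Trpv2*, *Trpm2*) beside at least 1 member with the opposite order.

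Of the inward rectifiers, *Kcnj2*, which sets the resting potential of muscle, endothelium and macrophages, had the highest difference. It was at -0.53 and -0.99 after sham operation and at 0.74 and 0.09 after injury. The groups did not overlap, but injury replicate 1 stood well above injury replicate 2, and the difference of 1.17 (standard error 0.27) missed the threshold (adjusted p = 0.0622 from limma). *Kcnj8* encodes the pore of the ATP-sensitive channel of vascular smooth muscle and pericytes. Its injury libraries were at -0.10 and -0.08, just below the lower sham library at -0.04, and its difference was -0.24 (95% interval -0.68 to 0.20, and -0.43 to -0.049 with any 1 library left out). *Kcnj15* had sham libraries at -0.81 and 0.28, with both injury libraries between them.

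Calcium- and sodium-activated potassium channels showed no call. *Kcnn4*, the intermediate-conductance channel of leukocytes and red cells, had overlapping groups with values of 0.11 and -0.18 after sham operation and 0.14 and -0.06 after injury. The 95% interval of its difference, -0.34 to 0.50, does not hold a change of the size seen for *Kcnab2* or *Kcnk13*. *Kcnn1*, a small-conductance channel, was higher in both injury libraries by a mean of 0.19 (adjusted p = 0.394 from limma). *Kcnt2*, a sodium-activated channel, was at 0.68 and 0.18 after sham operation and at -0.37 and -0.13 after injury, a difference of -0.68 (adjusted p = 0.108 from limma). With any 1 library left out the *Kcnt2* difference ran from -0.93 to -0.43.

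None of the 7 voltage-gated calcium channel genes was called. *Cacna1d*, an L-type pore, was at 0.39 and 0.06 after sham operation and at 0.68 and 1.12 after injury, and it was the only one of the 7 with a higher mean after injury (difference 0.68, adjusted p = 0.106 from limma). The P/Q-type pore *Cacna1a* was at 0.15 and -0.39 after sham operation and at -0.51 and -0.72 after injury. The T-type pore *Cacna1g* had sham libraries at 0.05 and 0.04 and injury libraries on either side of them. All 4 auxiliary subunits had lower means after injury, from -0.59 for the beta subunit *Cacnb3* (adjusted p = 0.109 from limma) to -0.21 for *Cacnb4*. The groups did not overlap for *Cacnb3*, *Cacnb1* and the alpha2delta subunit *Cacna2d1*.

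Likewise, none of the 5 sodium channel genes passed the threshold, and all 5 had lower means after injury. The pore *Scn3a* had overlapping groups and a difference of -0.18 (-0.35 to -0.01 with any 1 library left out). The beta subunits are single-span proteins that modulate the pore and act in cell adhesion. *Scn3b* was at 0.79 and 0.20 after sham operation and at -0.36 and -0.56 after injury, a difference of -0.95 (standard error 0.23, adjusted p = 0.0653 from limma). For *Scn4b* sham replicate 1 stood apart at 0.76, the groups overlapped and the difference was -0.56 (-0.99 to -0.12 with any 1 library left out).

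The TRPV channels had the most calls of the TRP families, 2 of 3 measured. *Trpv1*, the capsaicin receptor of sensory nerve fibres, which has also been found in arteriolar smooth muscle, was at 0.90 and 0.77 after sham operation and at -0.59 and -0.13 after injury. It fell by 1.19 (standard error 0.19, 95% interval of the difference -1.67 to -0.70, adjusted p = 0.0330 from limma), and both injury libraries were well below both sham libraries. *Trpv4*, a channel that answers to swelling and flow in endothelium and epithelia, was at 0.61 and 0.43 after sham operation and at -0.48 and -0.29 after injury. It fell by 0.90 (standard error 0.15, 95% interval of the difference -1.28 to -0.52, adjusted p = 0.0350 from limma). The *Trpv4* call was lost with a replicate block (adjusted p = 0.0555 from limma) and without injury replicate 1 (adjusted p = 0.0838 from limma). In mm9 *Trpv1* is on chromosome 11 from 73047794 to 73074744 and *Trpv4* on chromosome 5 from 115072161 to 115108430, neither with an overlapping gene. *Trpv2*, a channel of macrophages that is also known from brown adipocytes, was at -0.74 and -0.45 after sham operation and at 0.55 and 0.11 after injury. Its difference of 0.93 (standard error 0.21) lay just outside the threshold (adjusted p = 0.0555 from limma). After quantile normalization of the columns and after scaling them to one SD it was called (adjusted p = 0.0479 and 0.0458 from limma).

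Of the TRPM channels, *Trpm2*, which is opened by ADP-ribose under oxidative stress and is known from phagocytes, was at -0.46 and -1.04 after sham operation and at 0.96 and 0.10 after injury. The injury libraries were 0.87 apart, and the difference of 1.28 (standard error 0.34) did not pass (adjusted p = 0.0790 from limma). Leaving out injury replicate 1 brought the *Trpm2* difference to 0.85, and leaving out injury replicate 2 to 1.71. *Trpm4*, a calcium-activated channel for monovalent cations, had a difference of -0.60 (adjusted p = 0.140 from limma), and *Trpm7*, a channel fused to a kinase, one of -0.35 (adjusted p = 0.158 from limma), both with no overlap. With any 1 library left out the *Trpm4* difference ran from -0.83 to -0.37. *Trpc2*, of the TRPC family, had overlapping groups and a difference of 0.20. The RNA *Kcnq1ot1* was at -0.38 and 0.08 after sham operation and at 0.29 and 0.75 after injury (difference 0.67, adjusted p = 0.133 from limma). *Kcnq1* at the same locus differed by -0.67. *Kcnq1ot1* was not found in GENCODE, so its overlap with *Kcnq1* was not checked. As the strand setting of the counting is not given, reads of these genes may not be told apart. *Trpc4ap* differed by 0.10.

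The members were also read by the cell types in which the channels are known. These sets were chosen with earlier results of these data known, and a gene can be in more than one. Of all genes, 3.76% were called higher and 3.67% lower, and 31.6% were higher and 30.3% lower in both injury libraries, so that counts in sets this small say little. Of 9 channels known in leukocytes, 2 rose (*Kcnab2* and *Kcnk13*), none fell, and the median difference was 0.50 (0.33 without sham replicate 2). *Trpm2*, *Trpv2* and *Kcnk6* were also higher in both injury libraries, *Trpm4* and *Trpm7* were lower in both, and *Kcnn4* and *Kcne3* overlapped. Of 6 channels known in smooth muscle and pericytes none was called, 3 were lower in both injury libraries (*Kcnab1* and *Kcnj8* among them), 3 overlapped, and the median was -0.24 (-0.36 without injury replicate 1). Of 5 known in Schwann cells and axons *Trpv1* fell, 4 were lower in both injury libraries, and the median was -0.43. The 3 known in skeletal muscle (*Scn4b*, *Cacnb1* and *Cacna2d1*) had a median of -0.43 and no call. *Cacna2d1*, which is in both sets, is the median gene of each, and both medians were -0.20 without injury replicate 1 and -0.66 without injury replicate 2. Of the 2 known in endothelium *Trpv4* fell and *Kcnj2* had the opposite sign.

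Marker genes of several cell types differed between the same libraries. In bulk tissue, fewer cells of a type and less RNA per cell cannot be told apart. All 9 macrophage markers measured were higher in both injury libraries (5 called by limma), and the median of the list was -1.18 and -1.13 in the sham libraries and 0.55 and -0.22 in the injury libraries. All 7 neutrophil markers were higher as well (2 called), with list medians of -1.34 and -0.97 after sham operation and 1.22 and 0.18 after injury. All 7 smooth muscle markers were lower in both injury libraries (4 called), with medians of 1.72 and 1.03 after sham operation and -1.39 and -0.20 after injury. Endothelial markers were lower in 7 of 8 (2 called) and Schwann cell markers in 5 of 7 (2 called), with *S100b* higher in both injury libraries (difference 0.70). The skeletal muscle list had 4 of 7 markers lower, 1 higher (*Pvalb*, difference 1.11) and none called, and its median in sham replicate 1, 0.78, stood above the other libraries. Of the 8 adipocyte markers *Plin1* fell (difference -0.74, adjusted p = 0.0444 from limma), and 3 were lower and none higher in both injury libraries. The list had a median difference of -0.13 (-0.32 to -0.02 with any 1 library left out). The 7 brown adipocyte markers had one of 0.91 (4 called higher). *Ucp1*, *Dio2* and *Ppargc1a* were not called (adjusted p = 0.164, 0.106 and 0.329 from limma). Of 6 fibroblast markers 4 fell, with a median of -0.87, and *Pdgfra* was higher in both injury libraries (difference 0.41). For *Pdgfra* the separation was thin, with sham replicate 1 at -0.42 and injury replicate 1 at -0.41. Only 1 of 7 lymphocyte markers and 1 of 6 epithelial markers had a row. Injury replicate 1 was farther from the sham libraries than injury replicate 2 in the macrophage, neutrophil and smooth muscle lists. The same order was seen in 5 of the 6 called channel genes, all but *Kcnk5*, and in 77.7% of all called genes. It was seen in 16 of the 22 channel genes that were lower in both injury libraries (64.2% of all such genes) and in 7 of the 11 that were higher in both (62.5%), so that the order was common in the whole table. The scale does not show whether a marker is at 0. The part of these cell types in the channel results was not tested.

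**Figure D4:**
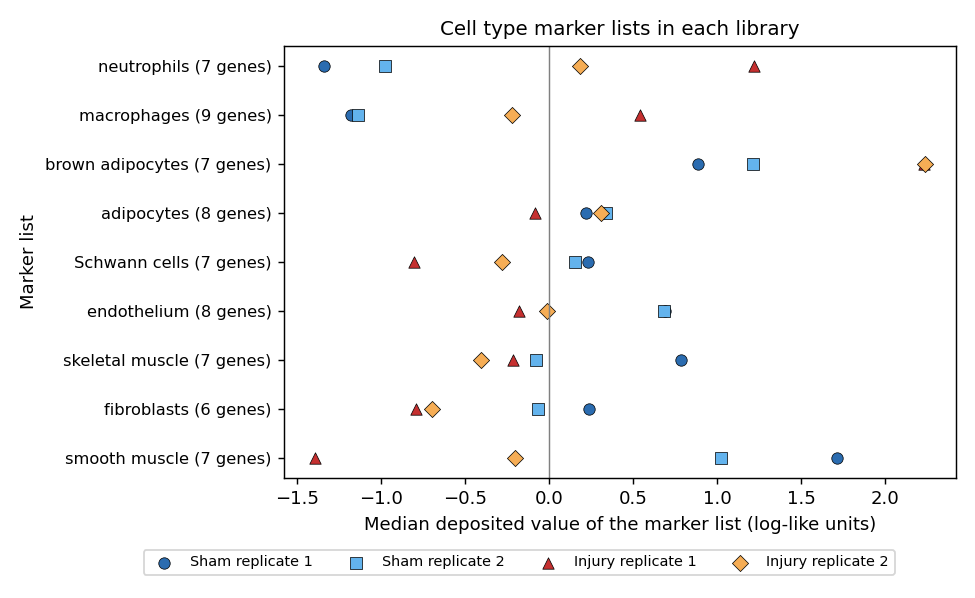
Median deposited value (x axis, log-like units) of each cell type marker list (y axis, with the number of genes measured) in the 4 libraries. The smooth muscle list falls from 1.72 and 1.03 in the sham libraries to -1.39 and -0.20 in the injury libraries, and the macrophage list lies at -1.18 and -1.13 against 0.55 and -0.22.

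Other ion channel and ion transport genes were read from a list, of which 68 of 121 symbols (older synonyms included) had a row. Of these 3 rose and 2 fell, 7.35% in all, close to the 7.43% of all genes called, and the median difference was 0.02 (0.01 over all genes). *Tpcn2*, a cation channel of lysosomes, rose by 1.16 (adjusted p = 0.0375 from limma), and the ATP receptor *P2rx5* by 1.06 (adjusted p = 0.0442 from limma). The plasma membrane calcium pump *Atp2b4* fell by 1.11 (adjusted p = 0.0350 from limma) and *Stim1*, the calcium sensor of the endoplasmic reticulum, by 0.65 (adjusted p = 0.0475 from limma). The *Stim1* call was lost with a replicate block (adjusted p = 0.0773 from limma). None of the 17 chloride channel genes measured was called by limma, and their differences ran from -0.62 for *Lrrc8c* to 0.45 for *Lrrc8d*. All 3 *Orai* genes, the pores of store-operated calcium entry, were higher in both injury libraries, and *Stim1* and *Stim2* were lower in both, with *Stim1* the 1 call among these 5.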

How the data were processed

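The authors made 4 stranded poly(A) libraries, each from 480 ng of RNA. Per the labels and the study's methods, reads were checked with FastQC 0.11.8, trimmed with Cutadapt 1.18 and Trimmomatic 0.39, aligned to mm9 with STAR 2.6.0a, counted with featureCounts and analysed with DESeq2 1.28.0. The authors deposited 1 signed, log-like score per gene and library and not counts. The step from counts to these values and the filter on genes are not given in the sources used here.

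Values were used as deposited. Groups were compared with limma 3.58.1 in R 4.3.3 (group as the only term, no trend, 2 residual and 3.48 prior degrees of freedom) over all 12661 genes, with Benjamini-Hochberg adjustment and a threshold of 0.05. Intervals use limma's standard errors. The members and lists were chosen with earlier results of these data known. Full statistics were given for called members, for the 10 highest and 10 lowest differences and for channels known in a cell type, and otherwise for examples of a class chosen after their values were seen. Promoter windows came from RefSeq, which matched 34 of the 46 symbols, and mm9 positions from GENCODE, which matched 45. In 20 simulated runs over 12661 genes with 200 changed, limma called 90.9% of the genes given a 2-unit change and 20.2% of the genes given a 1-unit change, with a mean of 6.05 false calls a run. Alternatives were a replicate block, each library left out, quantile normalization, columns scaled to one SD, a robust variance prior and a threshold of 0.1. Python 3.11.15, pandas 2.3.3 and matplotlib 3.10.9 were used. Some genes that enter the fit and the counts are not reported here by name.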

Additional observations from a re-analysis of the deposited data

How the results depend on the processing

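The 6 called channel genes were also called after quantile normalization (8 called), with columns scaled to one SD (8) and with a robust variance prior (6). At an adjusted p-value under 0.1 the limma calls were 2317 over all genes, 13 channel genes (5 higher and 8 lower) and 20 other ion channel and transport genes. The replicate numbers are not stated to pair the libraries, and deviations of same-numbered libraries correlated at -0.09. With a replicate block limma called 684 genes and 7 channel genes, 4 higher and 3 lower, and 5 of the 7 had also been called with group as the only term. *Trpv4* was not called with the block (adjusted p = 0.0555 from limma), and *Trpm2* and *Kcnj2* were (adjusted p = 0.0360 and 0.0363 from limma). With each library left out in turn, which leaves a lone library in 1 group that is assumed to vary like the other group, limma called 0 to 1790 genes, 0 to 12 channel genes (0 to 5 higher and 0 to 7 lower) and 0 to 11 other ion channel and transport genes. The median difference of the channel genes then ran from -0.35 (without injury replicate 2) to -0.19. Differences that changed sign, among the genes described, were those of *Kcnn4* (-0.062 to 0.22), *Kcna5* (-0.17 to 0.33), *Kcna2* (-0.64 to 0.38), *Trpc2* (-0.10 to 0.51), *Cacna1g* (-0.30 to 0.16), *Kcnj15* (-0.63 to 0.45) and *Cacnb4* (-0.46 to 0.041), none of them called. The cause of these shifts was not tested. The unknown depth and scale leave low and high genes unseparated.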

Other observations

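In several channel genes the libraries of 1 group were farther apart than the group means, among them *Kcnd1*, *Scn4b* and *Kcnc2*. *Kcnj15* and *Kcna2* had the widest such gaps. *Kcnj15* was lowest in sham replicate 1 (-0.81) and highest in sham replicate 2 (0.28), 1.09 units apart, and its group means differed by -0.09. *Kcna2* was lowest in injury replicate 1 (-0.49) and highest in injury replicate 2 (0.53), 1.02 units apart, and its group means differed by -0.13.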
